A study of Mus musculus with 4 samples.

Results

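The 6 genes described here encode proteins that carry other proteins into mitochondria and fold them there: the chaperonin subunits Hspd1 and Hspe1, the matrix Hsp70 Hspa9 and its nucleotide exchange factor Grpel1, and 2 subunits of the outer membrane entry gate, Tomm40 and Tomm70a. They were selected from a table of ribosome footprints of 4878 genes with their values in these same libraries in view, both the reads on the coding sequence and those on the 5' UTR, the untranslated leader ahead of the main start codon. All 6 were found in the table by name. Their differences between groups are therefore a description and carry no test. Ribosome profiling sequences the RNA fragments that ribosomes shield from RNase I. The cells were mouse embryonic fibroblasts, connective tissue cells cultured from embryos. One group was transfected with a negative control siRNA and the other with an siRNA against eIF1A, labelled X+18, both with Lipofectamine RNAimax. eIF1A helps the small ribosomal subunit scan the leader and choose a start codon. Each group held 2 libraries, numbered by their titles. No label says that the 2 came from separate cultures, so their spread may be technical. No genotype or age was given, and matched RNA levels were not used here. A footprint level thus joins the amount of an mRNA with its translation, and the number of cells cannot be told apart from the RNA per cell.

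Most mitochondrial proteins are made in the cytosol and imported. The TOM complex of the outer membrane receives them: Tomm70a is a receptor that docks cytosolic chaperones and takes over hydrophobic precursors such as metabolite carriers, and Tomm40 forms the pore. In the matrix, Hspa9 (mortalin) pulls incoming chains through the TIM23 channel as the motor of the import machine, and Grpel1 resets it by releasing ADP. Hspd1 (Hsp60) is a double-ring folding chamber, and Hspe1 (Hsp10) is the lid that closes it. In RefSeq's table of the build GRCm38.p6 (mm10), Hspd1 lies on chromosome 1 at 55077833 to 55088243, Hspe1 on chromosome 1 at 55088148 to 55091317, Grpel1 on chromosome 5 at 36465185 to 36474077, Tomm40 on chromosome 7 at 19701313 to 19715442 and Tomm70a on chromosome 16 at 57121714 to 57154530.

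Hspd1 and Hspe1 stand head to head, and their annotated spans overlap by 96 bases at the 5' ends. RefSeq gives Hspd1 a further transcript start at 55087932 on the minus strand, 216 bases from the plus-strand start of Hspe1 at 55088148, so that these transcripts run apart from a common stretch. Of the 300-base promoter windows, which reach from 250 bases before a start to 50 after it, those of these 2 transcripts shared 285 bases. Since the chaperonin and its lid were both higher in coding reads after eIF1A siRNA, a 30-base stretch of the shared promoter is shown as each gene reads it, at chr1:55088053-55088082 (GRCm38.p6), with the match to the heat shock element core GAANNTTC in capitals. The match begins 84 bases ahead of the Hspe1 start and 139 bases ahead of the Hspd1 start.
Hspe1, plus strand: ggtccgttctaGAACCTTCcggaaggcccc
Hspd1, minus strand: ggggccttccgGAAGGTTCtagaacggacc
The window of the other Hspd1 start, at 55088243, held an E-box (CACGTG) 80 bases and an NRF1 motif 59 bases ahead of it, at chr1:55088306-55088335 and chr1:55088283-55088312 on the minus strand, again in capitals.
Hspd1, E-box: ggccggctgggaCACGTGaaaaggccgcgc
Hspd1, NRF1 motif: gccgcgcagcGCGCAGGCGCactcagcccc
Both strands were searched, and the heat shock core and the E-box read the same on either. The heat shock core occurred in 7.95% of 27025 promoter windows (the first window of each gene) and in 5.01% of the 3831 windows of genes in the footprint table. For the E-box these shares were 7.24% and 11.7%, and for the NRF1 motif 4.78% and 13.1%. The C/EBP-ATF element TGATGNAA (4.06% and 2.17%) and the cAMP element TGACGTCA (1.88% and 3.39%) had no match in the windows of the 5 genes that could be searched. Grpel1, Tomm40 and Tomm70a matched none of the 5 motifs. Hspa9 had no promoter window and was not searched. A match is a description of these letters only.

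Summed over the table, the 2 control libraries held 617663 and 547916 reads and the 2 knockdown libraries 458191 and 280649, so the knockdown libraries, replicate 2 above all, were shallower. The deposited values are normalized reads, each a whole multiple of what 1 read is worth in its library, from which whole reads were recovered. No value was below 1 read, so a value of 1 may stand for 0. Of 7 fibroblast markers, Vim, S100a4 and Fn1 were in the table, with summed coding values of 3853 and 5504 for control siRNA and 3454 and 2871 for eIF1A siRNA. Of the 4 pericyte markers, Notch3 and Cspg4 were in the table, with sums of 337.5 and 548 for control siRNA and 106 and 123 for eIF1A siRNA. The 1 listed epithelial marker of 5, Dsp, had 109 and 146 against 82.4 and 71.8, and the 1 listed neuronal marker of 4, Map2, had 65.9 and 55.3 against 15.3 and 6.39. Of the 4 endothelial, 4 leukocyte and 4 skeletal muscle markers, 0 were in the table. The part of these differences in the results below was not tested. The siRNA target itself was not analysed here.

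Coding footprints of all 6 genes were higher with eIF1A siRNA, least in Tomm70a and most in Hspe1. For each gene both knockdown libraries lay above both controls. That was so in 26.0% of the 4619 genes tested on coding reads. All 6 were past the threshold of limma's test across genes (Benjamini-Hochberg adjusted p of 0.05), which 10.6% of genes passed upwards and 18.7% downwards. As these values chose the genes, nothing is read from either count. With control replicate 2 left out none of the 6 was past it, and with control replicate 1 left out Grpel1, Tomm40 and Tomm70a were not; the lone control is then assumed to vary as the knockdown libraries did. The median log2 change, on the scale of log2(normalized reads + 1), was 1.54 over the 6 genes and -0.16 over all genes. Scaling with TMM factors moved the median of all genes to 0.00 and the calls from 488 higher and 864 lower to 786 and 779, and the median of the 6 genes to 1.71.

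Hspe1, the lid of the chaperonin, had 10.7 and 21.6 normalized coding reads with control siRNA and 107 and 70.2 with eIF1A siRNA, replicate 1 first here and throughout. The groups did not overlap, though replicates differed within each. Its mean was 16.2 ± 7.68 in the controls and 88.5 ± 25.9 with eIF1A siRNA (SD, n = 2), a log2 change of 2.43 ± 0.39 (SE), which ranked 30 among 4619 genes from the largest rise. The recovered reads were few, 15 and 25 against 105 and 44. Their ratio at equal depth was 5.91, with a 95% counting interval of 4.14 to 8.60. Such intervals cover counting error only. Hspe1 also depended most on which library was left out: its log2 change was 1.95 without control replicate 1 and 2.90 without control replicate 2.

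Hspd1, the chamber itself, had 181 and 138 normalized coding reads in the controls, and 572 and 373 in the knockdown libraries. Knockdown replicate 1 was the highest. Means were 159 ± 29.9 and 473 ± 140.06 (SD, n = 2), a log2 change of 1.54 ± 0.30 (SE). Set against Hspd1 within a library, Hspe1 had 0.0595 and 0.156 coding reads per Hspd1 read in the controls and 0.187 and 0.188 with eIF1A siRNA. The knockdown libraries gave nearly the same proportion of lid to chamber, and the controls differed from each other by more than control replicate 2 did from either knockdown library. These proportions are not corrected for length, so they compare libraries and not the levels of the genes.

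Hspa9, the import motor, had 216 and 179 normalized coding reads in the controls, and 822 and 689.5 in the knockdown libraries. The spread within each group was small beside the gap between them. Means were 197 ± 26.0 and 756 ± 93.5 (SD, n = 2), a log2 change of 1.93 ± 0.29 (SE), at rank 82 of 4619. Its exchange factor Grpel1 had 25.8 and 27.7 normalized coding reads in the controls, and 74.2 and 67.0 with eIF1A siRNA. Replicates of Grpel1 lay close together in both groups, with means of 26.7 ± 1.32 and 70.6 ± 5.09 (SD, n = 2) and a log2 change of 1.37 ± 0.32 (SE). Per Hspa9 coding read there were 0.120 and 0.155 Grpel1 reads in the controls and 0.0904 and 0.0972 in the knockdown libraries. Both knockdown proportions were thus below both control ones, the reverse of the lid and chamber pair. Tomm70a coding reads per Tomm40 coding read were likewise lower with eIF1A siRNA, at 1.95 and 2.22, where the lower control had 2.68. No counting interval was computed for these proportions, so the part of counting error in the contrast between pairs was not tested. The directions restate the log2 changes of the chosen genes, and other pairs were not counted, so nothing is read from the separation.

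Tomm40, the pore, had 20.1 and 16.4 normalized coding reads in the controls, and 59.0 and 51.1 with eIF1A siRNA. It had as few as 19 reads in control replicate 2. Means were 18.2 ± 2.57 and 55.0 ± 5.59 (SD, n = 2), a log2 change of 1.54 ± 0.35 (SE). The receptor Tomm70a had 53.7 and 65.7 in the controls and 115 and 113 in the knockdown libraries. Its means of 59.7 ± 8.45 and 114 ± 1.13 (SD, n = 2) gave the smallest difference of the 6 genes in coding reads, a log2 change of 0.93 ± 0.30 (SE), at rank 615 of 4619. Neighbours in the order of the log2 changes (Hspe1, Hspa9, Tomm40, Hspd1, Grpel1, Tomm70a) differed by less than the sum of their standard errors, so their order is not resolved.

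**Figure D1:**
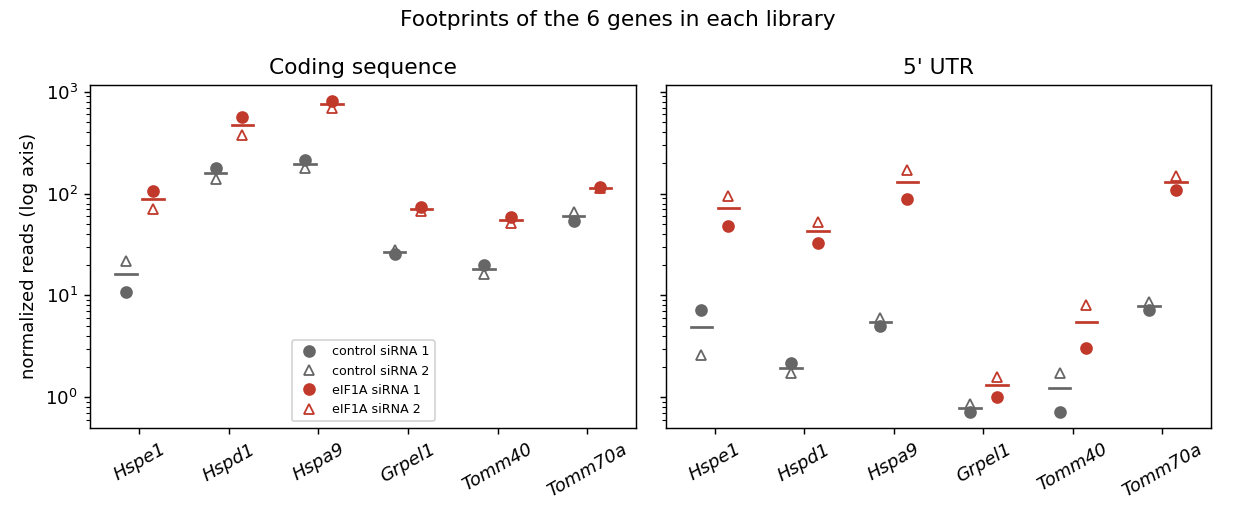
Normalized footprint reads (log axis) of the 6 genes on the coding sequence (left) and the 5' UTR (right) in each library, grey for control siRNA and red for eIF1A siRNA, with lines at the means of 2 libraries. Knockdown points lie above control points for every gene on the coding sequence; on the 5' UTR, Grpel1 stays at 1 read per library, whose worth differs between libraries, and Tomm70a goes from 7.17 and 8.64 to 109 and 150.04.

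On the leaders, 4 of the 6 genes had far more reads after eIF1A siRNA, and the other two had hardly any reads there. Hspe1, Hspd1, Hspa9 and Tomm70a passed the filter on low values, an average over the libraries of 10 or more normalized reads, and did so through the knockdown libraries, as none had a control mean of 10. They had to differ, and no support is taken from their number. All 4 were past limma's threshold upwards, as were 44.0% of the 2101 genes tested on 5' UTR reads, and the groups were separated upwards in 67.4%. Leader reads of the 2101 genes tested were raised with eIF1A siRNA, by a median log2 change of 1.09. With no filter on low values, the median was 0.67. Scaling each library to its own total of 5' UTR reads was chosen after the data were seen. It took the median of the genes tested to 0.13 and the calls from 924 higher and 59 lower to 474 and 368.

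Hspa9 had 5.02 and 6.05 normalized 5' UTR reads in the controls, which were 7 reads in each library, and 88.5 and 171 in the knockdown libraries. Its log2 change was 4.25 ± 0.52 (SE), at rank 7 of 2101 genes. The recovered reads stood at a ratio of 22.0 (95% counting interval 12.8 to 40.9). The order of the 4 leader differences is not resolved: with 1 read taken off every value the read ratio was 25.4 for Hspa9 and 33.3 for Hspd1, and without control replicate 1 the log2 change was 4.14 for Hspa9 and 4.26 for Hspe1. Tomm70a had 7.17 and 8.64 normalized 5' UTR reads in the controls, 10 reads in each, and 109 and 150.04 with eIF1A siRNA. Its log2 change was 3.86 ± 0.51 (SE), and the read ratio was 15.9 (10.05 to 26.7). The receptor with the smallest coding difference thus stood beside the motor in its leader difference.

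Hspd1 had 3 and 2 leader reads in the controls (2.15 and 1.73 normalized), and 32 and 33 in the knockdown libraries (32.5 and 52.7 normalized). With control counts this low the ratio is loose: it was 20.6 with a 95% counting interval of 8.40 to 65.6, or 33.3 (10.9 to 166) if every value carries 1 added read. Hspe1 had 10 and 3 leader reads in the controls (7.17 and 2.59 normalized), and 47 and 60 with eIF1A siRNA (47.8 and 95.8 normalized), a ratio of 13.1 (7.32 to 25.3). Log2 changes were 3.86 ± 0.63 for Hspd1 and 3.67 ± 0.54 for Hspe1 (SE). The sources used here do not say whether counting used strand, so leader reads on the 96 bases that the annotated Hspd1 and Hspe1 spans share might belong to either.

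With each library scaled to its own 5' UTR total, the log2 changes in leader reads were 3.32 for Hspa9, 3.03 for Hspd1, 2.91 for Tomm70a and 2.75 for Hspe1. The median of the genes tested was 0.13. As the leader values were known when the genes were chosen, nothing is read from their place above it. Tomm40 and Grpel1 were too sparse on the leader to be tested. Tomm40 had 1 and 2 leader reads in the controls and 3 and 5 in the knockdown libraries, a ratio of 4.23 (95% counting interval 1.01 to 24.7), or 9.51 (1.15 to 438) with 1 read less per value. Grpel1 was at 1 read, the lowest value of the table, in all 4 libraries, so no ratio is given. In all, 859 of the 4878 genes (17.6%) were at 1 leader read throughout.

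The share of a gene's reads that fell on its leader separated the genes. For Tomm70a it was 11.8% and 11.6% in the controls (exact Clopper-Pearson 95% intervals 5.79 to 20.6% and 5.72 to 20.3%) and 48.6% and 57.0% with eIF1A siRNA (41.9 to 55.4% and 49.04 to 64.6%). In the knockdown libraries about as many footprints of this receptor mRNA lay on the leader as on the coding sequence, with 0.947 and 1.32 leader reads per coding read against 0.133 and 0.132 in the controls. For Hspa9 the share was 2.27% and 3.27% in the controls (0.919 to 4.63% and 1.33 to 6.62%) and 9.72% and 19.9% in the knockdown libraries (7.86 to 11.9% and 16.6 to 23.5%). For Hspd1 it went from 1.18% and 1.23% (0.243 to 3.40% and 0.150 to 4.39%) to 5.39% and 12.4% (3.71 to 7.52% and 8.66 to 16.9%). The groups did not overlap for these 3 genes. Nor did they for the summed share of all listed genes (11.6% and 13.7% against 19.95% and 32.4%). How many single genes were separated in this way was not counted, so nothing is read from the separation.

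Hspe1 was mixed. Its leader share was 40.0% and 10.7% in the controls (21.1 to 61.3% and 2.27 to 28.2%) and 30.9% and 57.7% in the knockdown libraries (23.7 to 38.9% and 47.6 to 67.3%), so control replicate 1 lay above knockdown replicate 1. Shares for Tomm40 (3.45% and 9.52% against 4.92% and 13.5%) had intervals that overlapped throughout, at 1 to 5 leader reads: 0.0873 to 17.8% and 1.17 to 30.4% in the controls, 1.03 to 13.7% and 4.54 to 28.8% with eIF1A siRNA. Summed over the 6 genes, the leader held 4.33% and 4.596% of the reads in the controls (2.98 to 6.06% and 2.996 to 6.71%) and 13.9% and 26.0% with eIF1A siRNA (12.4 to 15.5% and 23.5 to 28.6%). Over all genes of the table these shares were 11.6% and 13.7% against 19.95% and 32.4%, so the summed share of the 6 genes lay below the table's in each library. That sum is weighted by reads, and Hspa9 and Hspd1 had the most coding reads. Taken singly in the knockdown libraries, Hspd1, Hspa9, Grpel1 and Tomm40 lay below the table's share. Tomm70a (48.6% and 57.0%) and Hspe1 (30.9% and 57.7%) lay above it. The shares are not corrected for length.

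**Figure D2:**
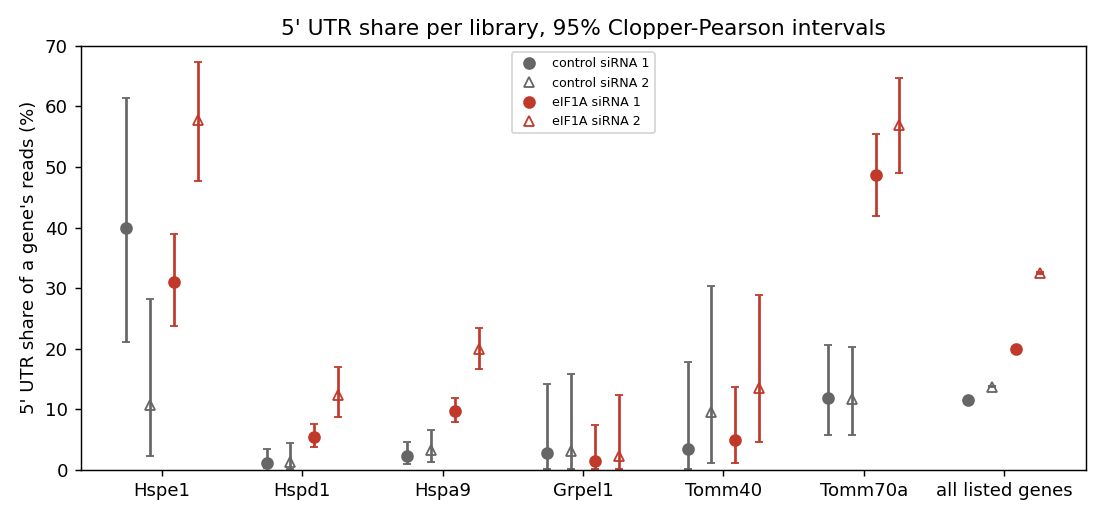
Percentage of each gene's recovered reads that fell on the 5' UTR, per library, with exact 95% Clopper-Pearson intervals as bars, for the 6 genes and for all listed genes (grey, control siRNA; red, eIF1A siRNA). Tomm70a moves from 11.8% and 11.6% to 48.6% and 57.0%, Hspe1 overlaps between groups, and the share of all listed genes is also higher in the knockdown libraries.

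Measured as the log2 ratio of leader to coding reads, where 1907 genes could be tested, the typical gene gained 1.23 with eIF1A siRNA. Hspe1 gained 1.24 ± 0.80 (SE), close to the median gene. Its error was too wide to say whether its leader and coding reads differed in the usual proportion. Without control replicate 1 the gain of Hspe1 was 2.30, and without control replicate 2 it was 0.17. Hspd1 gained 2.31 ± 0.70 and Hspa9 2.32 ± 0.73, each larger than in 88.9% and 89.0% of the genes. Tomm70a gained 2.93 ± 0.79, larger than in 96.8%. Past limma's threshold were Hspd1, Hspa9 and Tomm70a, 3 of the 4, as 19.4% of genes were upwards; the rule that chose the genes used these values, and nothing is read from the count. With each region scaled to its own total, the gains were 0.09 for Hspe1, 1.14 for Hspa9, 1.24 for Hspd1 and 1.73 for Tomm70a, against a median of 0.03, and none of the 4 was past the threshold. None was past it either with quantile normalization, without control replicate 1 or without control replicate 2, and only Tomm70a was without knockdown replicate 2.

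**Figure D3:**
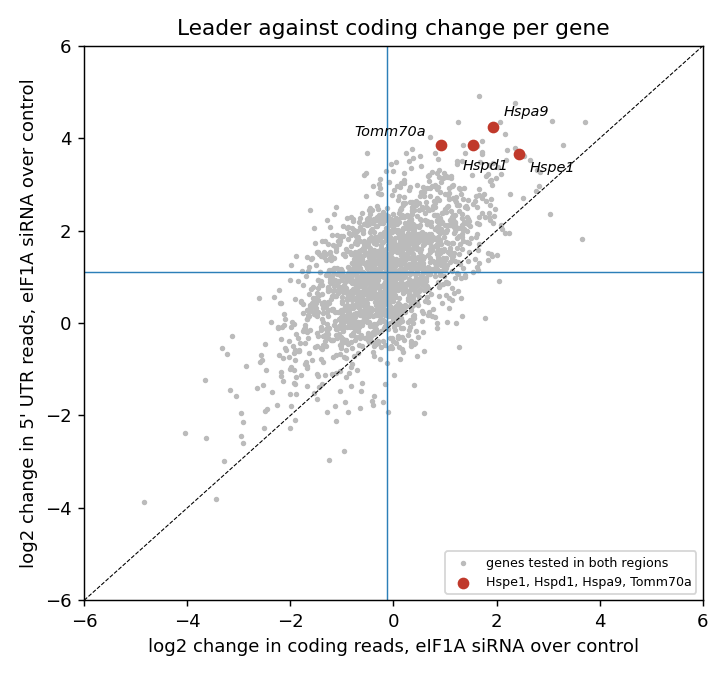
Log2 change in 5' UTR reads (vertical) against that in coding reads (horizontal), eIF1A siRNA over control siRNA, for the 1907 genes tested in both regions (grey), with Hspe1, Hspd1, Hspa9 and Tomm70a in red, blue lines at the medians of these genes and a dashed line of equal change. The 4 genes lie near the top, at 3.67 to 4.25 on the vertical axis, with Tomm70a farthest left at 0.93 and Hspe1 farthest right at 2.43.

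The rest of the import route was uneven on the coding sequence. Over 7 lists of import, chaperone and protease genes, the table held 26 further genes, of which 23 could be tested on coding reads: 10 rose, 1 fell and 12 did not pass limma's threshold, with a median log2 change of 0.91. Among all genes 10.6% passed upwards. The lists were drawn up with earlier results of these data known, so the count is a description. Without control replicate 1 or without control replicate 2, which leaves the spread to the knockdown libraries, limma passed 0 of the 23 upwards (9 and 7 at an unadjusted p under 0.05), and with 1 read taken off every value it passed 6. Each of the 10 that rose, and the 1 that fell, lost its call when control replicate 1 was left out, and again when control replicate 2 was. The log2 changes of the 10 stayed above 0 in every alternative run, the lowest being 0.57 for Tomm20.

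On the list of the TOM complex and receptors, which also holds the cytosolic Tomm34, 3 of 4 further genes rose, where 10.6% of all genes tested did. The receptor Tomm22 went from 33.6 ± 9.98 to 90.5 ± 28.7 normalized coding reads (SD, n = 2), which is 1.40 ± 0.35 (SE) on the log2 scale (limma adjusted p = 0.00743). The presequence receptor Tomm20 rose by 1.06 (limma adjusted p = 0.0386) and the small subunit Tomm7 by 1.01 (limma adjusted p = 0.0410). With 1 read taken off every value, Tomm20 and Tomm7 both lost their calls, and Tomm7 also lost its call with DESeq2. Tomm20 had 94.6 and 47.9 normalized coding reads in the knockdown libraries, and without knockdown replicate 1 its log2 change was 0.57 and no longer passed. Tomm34, a cytosolic co-chaperone of import, had 15.8 and 8.64 normalized coding reads in the controls against 45.8 and 1.60 with eIF1A siRNA, so its knockdown libraries lay on either side of the controls (limma adjusted p = 0.890). On the leader, Tomm20 rose by 2.78 (limma adjusted p = 1.08e-06), from 12.2 and 13.0 normalized reads to 80.4 and 105.

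Of 4 further genes of the TIM23 channel and its motor, only Timm23, the channel, passed, with a log2 change of 1.20 (limma adjusted p = 0.0459); its call was lost in 8 of 14 alternatives. Pam16 (1.00), Dnajc19 (0.91) and Timm44 (0.03), which tether or regulate Hspa9 at the channel, did not pass on coding reads. Timm44, which anchors Hspa9 to the channel, had 22.2 and 32.8 normalized coding reads in the controls and 36.6 and 20.8 with eIF1A siRNA. Timm13, a chaperone of the intermembrane space, rose by 1.63 (limma adjusted p = 0.0117). Of the peptidases that trim or degrade presequences, Pmpca and Pitrm1 rose by 0.91 each (limma adjusted p = 0.0384 and 0.0286), and Pmpcb had 0.59 (limma adjusted p = 0.162). Samm50, Mtx2 and Oxa1l, which insert proteins into the outer and inner membranes, did not pass (0.74, -0.15 and 0.75).

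The remaining matrix chaperones Dnaja3, a J-protein partner of Hspa9, and Trap1, the mitochondrial Hsp90, had log2 changes of 0.69 and 0.71 in coding reads and did not pass (limma adjusted p = 0.179 and 0.138). Among the mitochondrial proteases and prohibitins, Phb rose by 1.77 (limma adjusted p = 0.00424), Htra2 by 1.56 (limma adjusted p = 0.00547) and Afg3l1 by 0.97 (limma adjusted p = 0.0408). Spg7, paraplegin of the inner membrane m-AAA protease, fell from 69.4 ± 5.23 to 22.9 ± 3.68 normalized coding reads (SD, n = 2, limma adjusted p = 0.00294). Lonp1, the main matrix protease, had 123 and 130.5 in the controls against 178 and 184 (limma adjusted p = 0.184). On the leader, 11 of the 26 genes could be tested, and 9 rose, where 44.0% of all genes tested did. Of the 9, Pam16, Timm9 and Timm10 passed the filter only through the knockdown libraries and had to differ, so the count is no support. The 11 had a median log2 change of 1.96 against 1.09 for all genes tested, and DESeq2 called 2 of them higher. With each region scaled to its own total 7 rose, with a median of 0.99 against 0.13, and without control replicate 1 or control replicate 2 the counts were 2 and 4. At 1 leader read in every library were 11 of the 26 genes, among them Tomm22, Trap1 and Spg7. With no filter on low values, so that these counted too, the 26 genes had a median of 0.49. That was below the 0.67 of all genes. But 1 read is worth more in the knockdown libraries, so a gene at 1 read throughout shows a rise set by that worth alone. Such genes were 42.3% of the 26 and 17.6% of all listed genes, so nothing is read from the lower median.

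**Figure D4:**
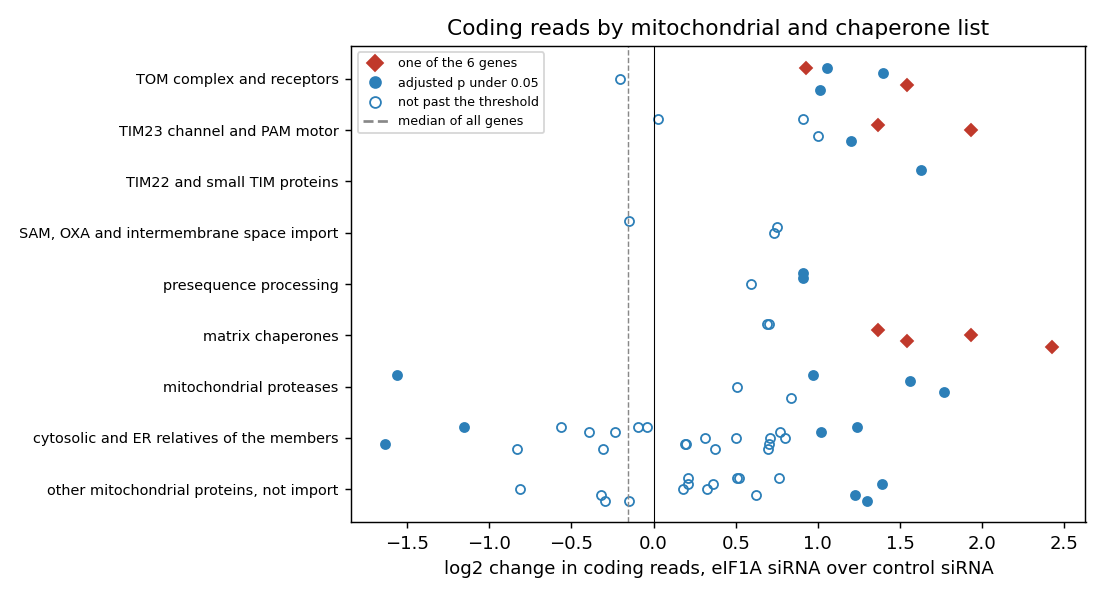
Each tested gene of 9 lists by its coding log2 change (knockdown over control), with red diamonds for the 6 genes (Hspa9 and Grpel1 appear on 2 lists), filled blue circles for other genes past limma's threshold and open circles for those that were not; the dashed line is the median of all genes at -0.16. The 6 genes lie between 0.93 and 2.43, and the lists of cytosolic and endoplasmic reticulum relatives and of other mitochondrial proteins have medians of 0.20 and 0.34.

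Of 21 tested cytosolic and endoplasmic reticulum relatives and cofactors, 2 rose, 2 fell and 17 did not pass on the coding sequence, with a median log2 change of 0.20. Of all genes tested 10.6% rose and 18.7% fell. The cytosolic Hsp70 Hspa8 had 1948 and 1417 normalized coding reads in the controls against 1736 and 923 (log2 change -0.39, limma adjusted p = 0.421), and the endoplasmic reticulum Hsp70 Hspa5 had 807 and 581 against 861 and 514 (-0.04, limma adjusted p = 0.941). Hspa2, another Hsp70, fell from 20.8 and 19.9 to 7.12 and 4.79 (-1.64, limma adjusted p = 0.0308), a call lost with DESeq2, without control replicate 1 and without control replicate 2. Hspa9 stood at 1.93 beside them. The difference between Hspa9 and its relatives was not tested, since Hspa9 was chosen by its change. For the cytosolic chaperonin TRiC, the counterpart of Hspd1, 2 of 8 subunits rose, Cct6a by 1.24 (limma adjusted p = 0.00593) and Cct2 by 1.02 (limma adjusted p = 0.0187). The median of the 8 was 0.74. Cct2 lost its call without control replicate 1, control replicate 2 or knockdown replicate 1, and Cct6a lost its call without control replicate 2. Hsp90b1 of the endoplasmic reticulum fell by 1.15 (limma adjusted p = 0.00895), a call lost with quantile normalization, without control replicate 2 and without knockdown replicate 2.

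On the leader, 12 of 17 tested relatives rose, against 44.0% of all genes tested, with a median log2 change of 1.98. Of the 12, Hsp90aa1, Cct3, Cct5 and Cct6a passed the filter only through the knockdown libraries and had to differ, so the count is no support. Scaled to the 5' UTR total 10 rose, with a median of 1.00 against 0.13 for all genes, and without control replicate 1 or control replicate 2 there were 7 and 8. Hsp90ab1, a cytosolic Hsp90, went from 46.6 and 65.7 normalized 5' UTR reads to 588 and 772.5 (log2 change 3.58, limma adjusted p = 2.53e-14), while its coding reads did not pass (0.38). Scaled to the 5' UTR total, its leader log2 change was 2.58. Of 16 other mitochondrial proteins outside import, 3 rose on the coding sequence, where 10.6% of all genes did. They were citrate synthase Cs (1.39) and the translation factors Gfm1 (1.30) and Tufm (1.22). The other 13 did not pass, and the median was 0.34. These 3 calls were also lost without control replicate 1 and without control replicate 2. On the leader 5 of 11 rose, against 44.0% of all genes tested, with a median of 1.26 against 1.09. Of the 5, 3 passed the filter only through the knockdown libraries, among them Immt, the mitofilin of the inner membrane. Immt had 5.73 and 4.32 normalized 5' UTR reads with control siRNA and 69.2 and 94.2 with eIF1A siRNA, a log2 change of 3.77, or 2.85 scaled to the 5' UTR total, beside 0.36 on the coding sequence.

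The coding profiles most like each of the 6 genes were sought among 1842 other genes whose coding reads averaged 50 or more after normalization. Unnamed gene models and pseudogenes were left out. The measure was the Euclidean distance between the 4 log2 values after each gene's own mean was subtracted. With 4 libraries in 2 groups, many genes share such a profile. Nearest to Hspa9 were Ybx3 (distance 0.18), Iars (0.28) and Yars (0.29), and nearest to Tomm40 were Yars (0.12), Ctps (0.16) and Mdm2 (0.17). Hspd1 lay nearest to Usp39 (0.12), Cyr61 (0.16) and Lsm4 (0.17), and Grpel1 to Pwp2 (0.07), Cstb (0.12) and Ddx27 (0.13). Tomm70a lay nearest to Pitrm1 (0.11), the presequence peptidase, then Tcof1 (0.12) and Cherp (0.13). Hspe1 had no close neighbour: Mdn1 (0.52), Rps24 (0.61) and Rpl12 (0.69) were nearest. Hspe1 had only 15 and 25 coding reads in the controls, and the part of counting error in its distances was not tested. Mdn1 also had unequal controls, with 27.2 and 44.9 normalized coding reads against 162 and 163 with eIF1A siRNA.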

How the data were processed

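The deposited signal is, per the file headers, a normalized read number per gene for the 5' UTR and the coding sequence in each of 4 libraries. Per the submitters' processing notes, cutadapt, Bowtie, TopHat2, HTSeq and DESeq2 were used with build mm10; versions, order, filters and strand are not given in the sources used here. Dividing a column by the worth of 1 read (0.717 and 0.864 for control siRNA, 1.02 and 1.60 for eIF1A siRNA) gave whole reads for 100% of its values, to a tolerance of 0.001 reads. Log2 of the value plus 1 was tested across all genes with a mean of at least 10 with limma 3.58.1 in R 4.3.3 (empirical Bayes with trend, Benjamini-Hochberg, threshold 0.05); the procedure was tested on simulated data. On coding reads, edgeR 4.0.16 called 1712 genes and DESeq2 1.42.0 called 988, against 1352 by limma. The 6 genes and all lists were chosen with earlier results of these data known. From each list, genes past the threshold were named, up to 5 by smallest adjusted p, or else up to 2 as values; further names were chosen after their values were seen. Coding lengths and protein sequences were not used here.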

Additional observations from a re-analysis of the deposited data

How the results depend on the processing

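Across the alternatives run, the log2 change of each of the 6 genes stayed above 0 on coding reads (0.79 to 2.90) and, for the 4 tested, on the 5' UTR (2.58 to 4.72). The ratio of leader to coding reads of Hspe1 turned to -0.020 with quantile normalization, which sets each region to a common distribution. The median coding change of the 6 genes, 1.54, was 1.78 with quantile normalization, 1.73 with edgeR and 1.74 with DESeq2, and 1.37 to 1.75 with 1 library left out. Calls over all genes numbered 1352 on coding reads, 983 on the 5' UTR and 371 for the ratio. With a filter at a mean of 50 they numbered 788, 232 and 111, and 6 genes of the import lists passed upwards in place of 10, as fewer genes were tested; with 1 read taken off, 6 passed. DESeq2 called 353 genes on the 5' UTR. The split into higher and lower calls moved with the scaling: on coding reads 488 and 864 became 695 and 694 with quantile normalization, 900 and 812 with edgeR and 490 and 498 with DESeq2, and on the 5' UTR 924 and 59 became 452 and 375, 427 and 435, and 139 and 214. For the ratio, limma called 1 gene with quantile normalization, 13 with region totals and 629 with no filter. With 1 library left out, calls ranged from 11 to 1729 on coding reads, 189 to 1396 on the 5' UTR and 0 to 1175 for the ratio (180 at an unadjusted p under 0.05 where limma gave 0, without control replicate 2), and 0 to 13 of the import genes rose; the cause was not tested. The summed leader share of the 6 genes rose by 9.42 to 21.5 percentage points with 1 library left out, against 15.5. With the replicate number as a block, limma called 1921, 1258 and 851 genes; the same-numbered libraries deviated together (r = 0.26 over 4619 genes), but no label says that they were paired. Levels per coding length were planned and not run. With 2 libraries a group, an exact permutation test of a single value could not pass the threshold, so none was run.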
